A study of Mus musculus with 97 samples.

Results

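The central and posterior genes of the HoxA cluster, Hoxa5, Hoxa6, Hoxa7, Hoxa9, Hoxa10, Hoxa11 and Hoxa13, were described one by one across every library of the deposited table. They were taken by symbol, and all 7 were found among 37810 genes with values. The assay was TRAP (translating ribosome affinity purification): ribosomes tagged in 1 cell type are pulled down, and the RNA bound to them is sequenced. The 24 TRAP libraries came from microglia, the resident macrophages of the brain, of the striatum (a forebrain region) or the cerebellum, at 3, 6 or 9 months of age, with 2 libraries for each region, age and genotype. A further 4 libraries held tissue RNA from 9-month controls. Their protocol names the unbound fraction of the purification, but the library names hold UB in 1 library of each region and IN in the other, which the labels do not explain.

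All mice were C57BL/6, received tamoxifen at 4 to 6 weeks of age, and carried a tamoxifen-dependent Cre at the Cx3cr1 gene together with a ribosomal protein, L10a, fused to green fluorescent protein and switched on by that Cre. The control genotype was Cx3cr1CreErt2/+(Litt);Eef1a1LSL.eGFPL10a/+;Eedfl/+. The genotype labelled Eed-ko was Cx3cr1CreErt2/+(Litt);Eef1a1LSL.eGFPL10a/+;Eedfl/fl. Controls therefore carried the Cre, the tagged ribosome and 1 floxed Eed allele, and the comparison is between 1 and both alleles floxed. Cx3cr1 is also active in other macrophages of the brain's borders, and the labels do not say whether a library is 1 animal or a pool, or whether libraries are separate animals, so p-values measure the spread between these samples, which may be technical.

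Hox genes encode homeodomain transcription factors that mark position along the body axis. They lie in clusters in the order of the body regions they mark, with the anterior genes at one end and the posterior genes at the other. In cells where they are off, the clusters are textbook targets of Polycomb repressive complex 2, whose subunit EED binds methylated lysine 27 of histone H3 and is required for the methyltransferase activity of its partners EZH1 and EZH2. Among these genes, Hoxa5 acts in the lung and the neck and chest skeleton, Hoxa9 in blood stem cells and leukaemia, Hoxa10 and Hoxa11 in the lumbar region, kidney and uterus, and Hoxa13 in the digits and the lower urogenital tract.

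The promoter windows below are shown because Hoxa7, Hoxa10 and Hoxa13 were the members with most reads in 9-month Eed-ko libraries, while Hoxa9, which lies between Hoxa7 and Hoxa10, had almost none. Each is the 250 bases before an annotated start, 5′ to 3′, from RefSeq on GRCm38.p6, a later build than the mm9 build named for the deposited values. Capitals mark CG dinucleotides. All 7 members matched the promoter table, with 8 windows because Hoxa10 has an entry for each of its starts.
Hoxa7 (chr6:52218574-52218823, minus strand): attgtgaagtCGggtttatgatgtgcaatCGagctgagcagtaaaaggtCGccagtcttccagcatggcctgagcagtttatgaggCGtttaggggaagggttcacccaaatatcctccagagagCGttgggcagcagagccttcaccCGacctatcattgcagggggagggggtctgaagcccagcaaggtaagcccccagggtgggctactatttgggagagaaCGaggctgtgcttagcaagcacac
Hoxa9 (chr6:52227371-52227620, minus strand): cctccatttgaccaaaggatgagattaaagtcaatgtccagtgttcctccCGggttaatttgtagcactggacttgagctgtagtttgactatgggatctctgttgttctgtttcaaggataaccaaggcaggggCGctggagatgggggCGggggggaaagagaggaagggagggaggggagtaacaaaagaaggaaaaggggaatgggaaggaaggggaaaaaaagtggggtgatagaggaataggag
Hoxa10, start nearer Hoxa11 (chr6:52240855-52241104, minus strand): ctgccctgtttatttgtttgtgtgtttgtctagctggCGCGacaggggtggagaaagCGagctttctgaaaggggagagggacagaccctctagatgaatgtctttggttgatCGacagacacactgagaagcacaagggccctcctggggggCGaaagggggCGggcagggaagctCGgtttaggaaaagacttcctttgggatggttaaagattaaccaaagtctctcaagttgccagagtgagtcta
Hoxa10, start nearer Hoxa9 (chr6:52234940-52235189, minus strand): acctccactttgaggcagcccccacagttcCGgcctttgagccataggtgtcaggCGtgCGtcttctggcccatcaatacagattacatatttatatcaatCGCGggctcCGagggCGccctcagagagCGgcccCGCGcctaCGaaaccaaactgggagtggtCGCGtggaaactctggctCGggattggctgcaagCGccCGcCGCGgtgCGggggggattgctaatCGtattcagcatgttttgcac
Hoxa13 (chr6:52260881-52261130, minus strand): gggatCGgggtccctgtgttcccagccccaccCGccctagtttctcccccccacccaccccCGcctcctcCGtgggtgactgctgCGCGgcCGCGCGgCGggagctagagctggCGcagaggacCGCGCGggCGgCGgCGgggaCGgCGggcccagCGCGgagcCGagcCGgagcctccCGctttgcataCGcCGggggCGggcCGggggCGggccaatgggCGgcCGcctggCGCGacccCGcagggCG
The Hoxa7 window held 7 CG dinucleotides, that of Hoxa9 held 3, and those of Hoxa10 held 7 and 20. The Hoxa13 window, with 35 CG dinucleotides, had more than 97.0% of all 32851 promoter windows of that length, whose median was 6. The windows that are not printed held 28 for Hoxa5, 24 for Hoxa6 and 13 for Hoxa11. The core motif of MEIS proteins, partners of posterior Hox proteins, was searched as TGACAG on both strands and had no match in the 8 windows, against 15.9% of all promoter windows with a match. A core motif of CDX proteins, activators of central Hox genes in the embryo, was searched as TTTATG on both strands; it occurred in the Hoxa7 window, 2 times, and in no other member's window, against 10.8% of all windows. The deposited values are per gene and do not tell the starts of Hoxa10 apart.

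Values were RPKM (reads per kilobase of gene and M reads, where M is mega), so levels of different genes are compared per length. Whole read numbers were recovered from the RPKM steps as the smallest whole numbers that fit. Reads of a gene seen in few libraries can therefore be understated. TRAP libraries held 21.7 to 187 M reads and tissue libraries 21.5 to 59.5 M. The 9-month Eed-ko libraries held 37.4 and 117 M in striatum and 22.3 and 187 M in cerebellum, and 9-month controls held 32.1 and 96.5 M in striatum and 21.7 and 107 M in cerebellum. Across TRAP libraries, 3 reads of Hoxa10, the smallest number treated here as above counting error, correspond to between 0.00418 and 0.0361 RPKM. All 15 microglial markers checked entered the test, with P2ry12 at 1004 ± 81.3 RPKM in striatal and 243 ± 57.3 RPKM in cerebellar controls (SD, n = 6 each). RNA of other cells was present too. In 9-month controls, 10 neuronal markers summed to 726 to 1086 RPKM in striatum, against 5663 to 5731 for the microglial markers. In cerebellum the sums were 1526 to 1567 against 1872 to 2813 RPKM. Eed itself was not lower in the libraries labelled Eed-ko. It stood at 21.7 ± 5.80 RPKM in control and 26.1 ± 6.80 in Eed-ko striatum, and at 20.5 ± 2.40 and 28.1 ± 2.18 in cerebellum (SD, n = 6 each). The labels do not say which exons are floxed, and a value over the whole gene does not check the deletion, so genotype below means the label.

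Hoxa10 had the highest level of the 7 genes. In 9-month Eed-ko striatum it stood at 2.74 RPKM (393 reads) in library 1 and 3.30 RPKM (1482 reads) in library 2. In 9-month Eed-ko cerebellum the values were 0.432 RPKM (37 reads) in library 1 and 1.33 RPKM (953 reads) in library 2. All 4 control TRAP libraries of 9 months and all 4 tissue libraries held 0 reads. With only 2 TRAP libraries of each genotype in a region, a lack of overlap at 9 months is easily reached. The share of all genes without overlap was not computed, so it is not read as a result about Hoxa10. Mean levels in 9-month Eed-ko libraries were 3.02 ± 0.397 RPKM in striatum and 0.881 ± 0.635 RPKM in cerebellum (SD, n = 2), at least 497-fold and at least 145-fold higher than a floor of 3 reads over the 2 control libraries of the region. At younger ages Hoxa10 was near 0 in both genotypes. The highest younger value was in a control, library 1 of 3-month striatum, at 0.184 RPKM (18 reads), followed by Eed-ko library 2 of 3-month striatum at 0.0625 RPKM (8 reads). Single reads occurred in 2 younger cerebellar Eed-ko libraries, and the 16 remaining TRAP libraries outside the 9-month Eed-ko group held none. Of 2893 Hoxa10 reads in TRAP libraries, 2865 (99.0%) lay in the 4 Eed-ko libraries of 9 months; shares of reads weight deep libraries more.

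Hoxa7, a gene of the trunk, was next. In 9-month Eed-ko striatum it stood at 0.316 RPKM (34 reads) in library 1 and 1.64 RPKM (551 reads) in library 2, and in cerebellum at 0.405 RPKM (26 reads) and 1.20 RPKM (645 reads). The 9-month TRAP controls held 0 reads. Library 2 was therefore the higher one in both regions, and it carries the same library number, 48, in both. The means of 0.977 ± 0.935 RPKM in striatum and 0.803 ± 0.562 RPKM in cerebellum (SD, n = 2) were at least 121-fold and at least 99.3-fold higher than the floor of 3 reads over the controls, but the libraries of a group differed by about as much as their mean. Outside this group, the highest value was in a control, library 1 of 6-month cerebellum, at 0.195 RPKM (54 reads). The 6-month Eed-ko libraries numbered 2 held 0.123 RPKM in striatum (27 reads) and 0.0463 RPKM in cerebellum (7 reads), and a 3-month striatal control held 1 read. Tissue RNA held 12 Hoxa7 reads over its 4 libraries, at most 0.0660 RPKM.

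Hoxa13, the most posterior gene, was detected almost only in the same libraries, at a lower level. Eed-ko libraries at 9 months held 0.0542 RPKM (5 reads) and 0.416 RPKM (120 reads) in striatum, and 0 and 0.304 RPKM (140 reads) in cerebellum. All 12 TRAP controls held 0 reads, and 1 read was found in the 8 younger Eed-ko libraries. The 2 cerebellar values thus differ more than their mean, since library 1, the shallowest of the group, held no read; 3 reads there would give 0.0545 RPKM. Means were 0.235 ± 0.256 RPKM in striatum and 0.152 ± 0.215 RPKM in cerebellum (SD, n = 2), at least 24.9-fold and 16.1-fold higher than the floor of 3 reads over the controls.

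Hoxa5 followed another pattern and appeared in single libraries. It stood at 0.613 RPKM (43 reads) in library 1 of 9-month Eed-ko striatum and at 0 in library 2 of that group, and at 0.329 RPKM (47 reads) in library 2 of 6-month Eed-ko striatum and at 0 in library 1. Elsewhere it held 3 reads in a 3-month cerebellar Eed-ko library, 1 read in a 6-month cerebellar control and 4 reads in a cerebellar tissue library. The 2 higher libraries are both striatal and labelled Eed-ko, and each has a partner at 0.

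Hoxa6, Hoxa9 and Hoxa11 stayed near 0 in every library. Hoxa6 had 7 reads in all TRAP libraries, 5 of them in library 2 of 6-month Eed-ko striatum, the library that also held the 47 Hoxa5 reads and 27 Hoxa7 reads. Hoxa9 had 25 reads, 17 of them in 9-month Eed-ko libraries, where its highest level was 0.0513 RPKM, from 4 reads. Hoxa11 had 15 reads, none in a 9-month Eed-ko library, and its highest value was 0.0808 RPKM (12 reads) in a 6-month striatal control. In each 9-month Eed-ko library, the values of Hoxa6, Hoxa9 and Hoxa11 thus lay under those of Hoxa7 and Hoxa10. Reads came from amplified cDNA, and Hoxa5 was at 0 in the deeper striatal library of that group, so depth alone does not bound these genes.

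**Figure D1:**
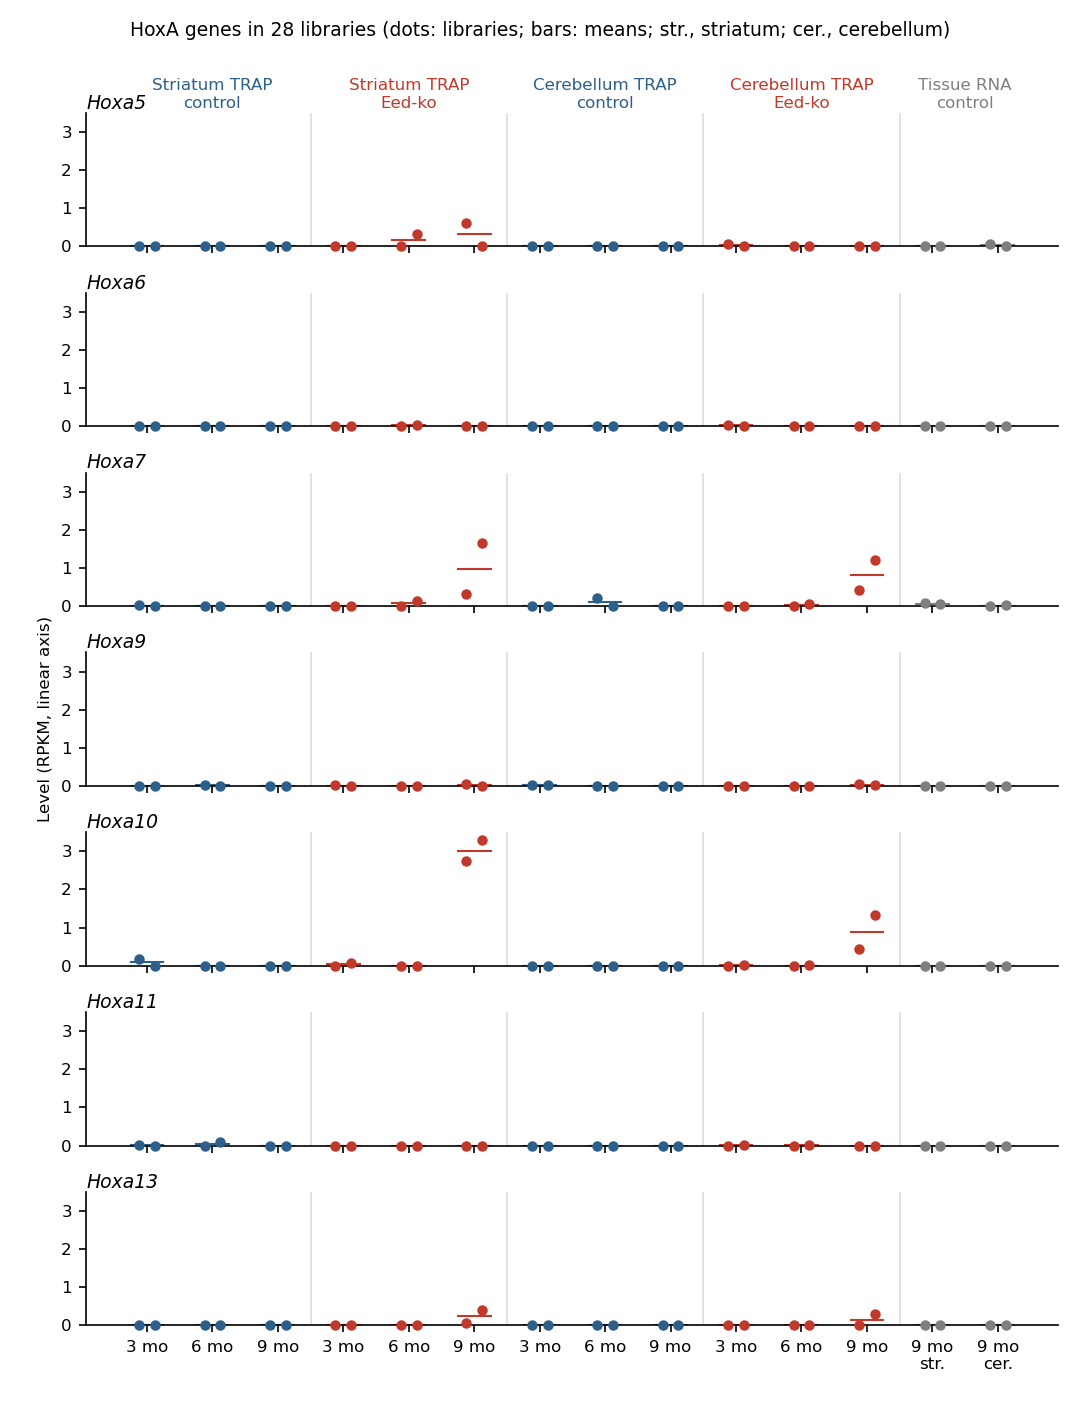
Level of each HoxA gene from Hoxa5 (top) to Hoxa13 (bottom) in 28 libraries, in RPKM on a linear axis; dots are libraries, horizontal bars are means of the 2 libraries of a group, and columns are region, genotype and age. Hoxa10 reaches 2.74 and 3.30 RPKM in 9-month Eed-ko striatum and stays at or under 0.184 RPKM in all libraries outside the 9-month Eed-ko group.

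Read along the cluster, the 9-month Eed-ko signal was not continuous. From Hoxa5 to Hoxa13, striatal means were 0.307, 0, 0.977, 0.0230, 3.02, 0 and 0.235 RPKM, and cerebellar means were 0, 0, 0.803, 0.0310, 0.881, 0 and 0.152 RPKM. Genes with signal thus alternated with neighbours at or near 0 in both regions. Ordered by level in striatum, Hoxa10 stood above Hoxa7 in both libraries, and Hoxa7 stood above Hoxa13 in both, at 5.83 and 3.94 times its level. Hoxa5 was above Hoxa7 in library 1 and at 0 in library 2. In cerebellum Hoxa10 and Hoxa7 were close, and both Hoxa13 values lay under all values of these genes, with Hoxa7 at 3.95 times the level of Hoxa13 in library 2 and Hoxa13 at 0 in library 1. The ratio of Hoxa10 to Hoxa7, per length and within a library, was 8.66 and 2.02 in the striatal libraries and 1.07 and 1.11 in the cerebellar ones. The 2 genes thus kept about 1 ratio in cerebellum and not in striatum.

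**Figure D2:**
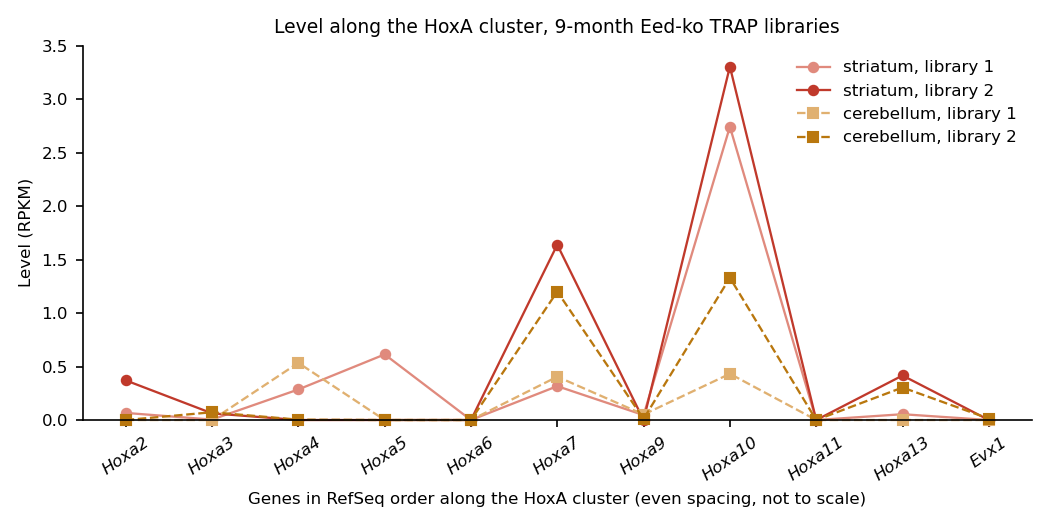
Level in RPKM of Hoxa2 to Hoxa13 and Evx1 in RefSeq order, evenly spaced and not to scale, in each of the 4 Eed-ko TRAP libraries of 9 months; lines join the values of 1 library and carry no values between genes. Peaks at Hoxa7 and Hoxa10 appear in all 4 libraries, with Hoxa9 at 0.0513 RPKM or less between them.

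By library, 3 to 5 of the 7 genes had more than 3 reads in each 9-month Eed-ko library, at most 3 did in the younger Eed-ko libraries, and at most 1 did in controls. Their summed level ran from 0.888 to 5.36 RPKM in the 4 Eed-ko libraries of 9 months. It ran from 0 to 0.485 RPKM in the 8 younger Eed-ko libraries (median 0.0389) and from 0 to 0.212 RPKM in the 12 controls (median 0.00453). No read of any of the 7 genes was found in 6 of the 12 controls, including all 4 at 9 months, and in 2 of the 8 younger Eed-ko libraries. In the 9-month Eed-ko libraries the sum came mostly from Hoxa7 and Hoxa10, while Hoxa6 and Hoxa11 held no read there. That the sum did not overlap with the other TRAP libraries therefore describes Hoxa7 and Hoxa10, not all 7 genes. How often sums of other sets of genes do not overlap was not computed.

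Of the 7 genes, 2 (Hoxa7 and Hoxa10) had their lowest 9-month Eed-ko value above the highest of the other 20 TRAP libraries. This count was chosen after the values were seen. Over all 32374 genes with a read in a TRAP library, 24 did so, or 0.0741% of them, and 19 of the 16090 that passed the filter below, or 0.118%. The 9-month Eed-ko libraries carry the library numbers 38 and 48, each in both regions, so they may not be independent. In bulk RNA of this kind, fewer cells of a type and less RNA per cell cannot be told apart, and the same holds for few cells with much Hoxa10 RNA and many cells with little.

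The statistical test was limma on log2(RPKM + 1) over the 24 TRAP libraries, with a filter of at least 1 RPKM in at least 2 libraries. On that scale the difference of a low gene is smaller than its log2 fold change. Hoxa7 and Hoxa10 passed the filter, and they did so through the Eed-ko libraries; Hoxa5, Hoxa6, Hoxa9, Hoxa11 and Hoxa13 did not enter the test. Averaged over the 3 ages, Hoxa10 was 0.64 (log2) higher in Eed-ko striatum (SE 0.16, unadjusted p = 0.000635, limma adjusted p = 0.115) and 0.29 higher in cerebellum (SE 0.16, limma adjusted p = 0.393). Hoxa7 was 0.32 higher in striatum (SE 0.18, limma adjusted p = 0.491) and 0.24 higher in cerebellum (SE 0.18, limma adjusted p = 0.577). Neither gene passed an adjusted p of 0.05 in either region, so 0 of the 7 members were called. Of all 16090 genes tested, 0.106% were called in striatum and 0.373% in cerebellum. The cerebellar calls were 20 higher and 40 lower in Eed-ko, and 66 higher and 8 lower after scaling to microglial markers; the striatal calls were 12 higher and 5 lower, and 0 and 1. At an unadjusted limma p under 0.05, 1 of the 2 tested members was counted in striatum and 0 in cerebellum. Voom on the recovered reads, which ran as an alternative, called neither.

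Whether the genotype difference changed between ages was asked with an F-test in limma. The 3-month libraries of both genotypes carry another form of library name than those of 6 and 9 months, which the labels do not explain. They also had more genes above 0, at 19987 to 23080 against 16203 to 19110 in 9-month TRAP libraries. Age therefore cannot be told apart from a difference in how libraries were made or sequenced. For Hoxa10 in striatum, the difference at 9 months was 2.08 (log2) larger than at 3 months, and that at 6 months 0.078 larger (unadjusted p = 3.53e-05, limma adjusted p = 0.0516). Hoxa10 passed the filter only through 9-month Eed-ko libraries, which favours a larger difference at that age, so this p is a description. Mean log2(RPKM + 1) in 9-month striatum was 2.00 in Eed-ko and 0 in control. With no filter on low values Hoxa10 passed this test (limma adjusted p = 0.000315, 32374 genes tested) and also that of the striatal average over ages (limma adjusted p = 0.00609), with the standard error of the average falling from 0.16 to 0.090. It also passed the age test with median-ratio scaling (adjusted p = 0.0454), with striatal libraries alone (adjusted p = 0.0281) and without library 2 of the 3-month striatal controls (adjusted p = 0.0459). It did not pass with the other 16 alternatives, where the highest adjusted p was 1, after scaling to microglial markers. The call of Hoxa10 in striatum thus depends on the settings and is not counted as made.

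In cerebellum, the 9-month difference of Hoxa10 was 0.86 larger than that at 3 months (limma adjusted p = 0.682). For Hoxa7 the corresponding changes were 0.91 in striatum (limma adjusted p = 0.778) and 0.81 in cerebellum (limma adjusted p = 0.762). No member was called, where 0.0559% of all genes tested were called for a change with age in striatum and 0.0373% in cerebellum. Calls were split by the sign of the genotype difference at 9 months minus that at 3 months. The cerebellar calls were 5 higher and 1 lower, and 4 and 13 after scaling to microglial markers. The striatal ones were 8 and 1, and 2 and 0 after that scaling. The genotype difference itself did not pass a test between regions. Cerebellum minus striatum was -0.35 for Hoxa10 (SE 0.22, limma adjusted p = 0.696) and -0.085 for Hoxa7 (SE 0.26, limma adjusted p = 0.963). No gene of the 16090 was called for this difference (0%); 1380 had an unadjusted limma p under 0.05, and voom also called 0. Over all genes tested, the median genotype difference was 0.015 in striatum and -0.011 in cerebellum.

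Without the 9-month libraries, an alternative added after the data were seen, Hoxa10 in striatum was -0.039 (log2, limma adjusted p = 0.998) and Hoxa7 in cerebellum -0.048 (limma adjusted p = 0.926). Leaving out both libraries of number 48, also added then, gave Hoxa10 0.61 in striatum (limma adjusted p = 0.0525) and Hoxa7 0.16 (limma adjusted p = 0.621). Leaving out both libraries of number 38 gave 0.68 (limma adjusted p = 0.130) and 0.49 (limma adjusted p = 0.214). The average difference of Hoxa7 in striatum therefore rests on library number 48 more than that of Hoxa10 does.

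**Figure D3:**
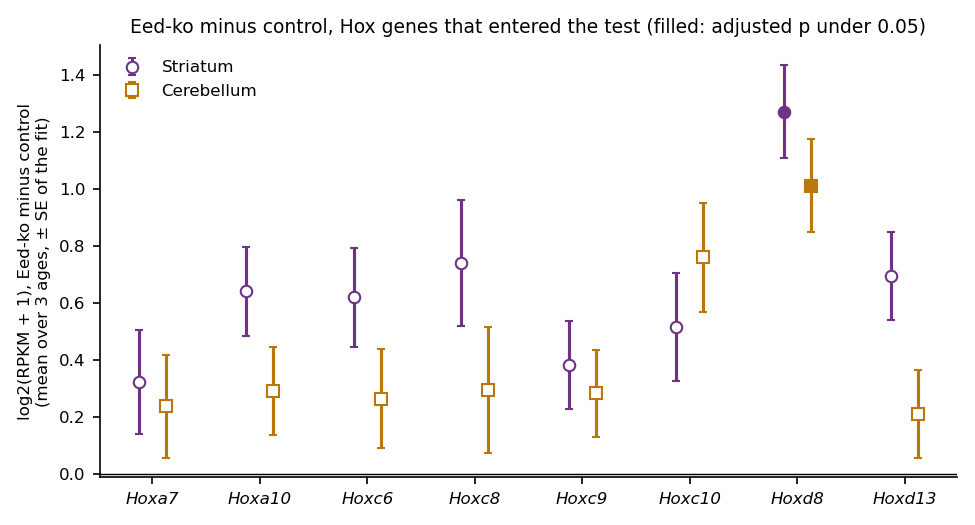
Eed-ko minus control in log2(RPKM + 1), averaged over 3 ages, with the standard error of the limma fit, for each Hox gene of paralog groups 5 to 13 that entered the test; circles are striatum, squares cerebellum, and filled symbols have an adjusted p under 0.05. Hoxa10 lies at 0.64 in striatum and 0.29 in cerebellum with open symbols, and Hoxd8 alone is filled, in both regions.

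The more anterior genes Hoxa2, Hoxa3 and Hoxa4, which mark the hindbrain and neck, did not enter the test because none of them reached 1 RPKM in 2 libraries. Hoxa4, the neighbour of Hoxa5, was highest in library 1 of the 9-month Eed-ko group, at 0.285 RPKM in striatum (17 reads) and 0.534 RPKM in cerebellum (19 reads), with 1 read in the other cerebellar library and none in the other striatal one. The same striatal library held the 43 Hoxa5 reads. Hoxa3 was at most 0.0726 RPKM in any TRAP library, with 138 of its 150 reads in 9-month Eed-ko libraries. Hoxa2 reached 0.371 RPKM and had reads in libraries of both genotypes. The table lists Hoxa3 under 2 identifiers, and 1 of them is 0 throughout.

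Other genes in and beside the cluster were matched to the table by name. The noncoding gene Hotairm1 (Gm15051 in the table) stood at 0.888 RPKM (34 reads) in library 1 of 9-month Eed-ko striatum and at 0.151 RPKM or less in the other TRAP libraries. Gm15050, a noncoding gene next to Hoxa3, had all its 109 TRAP reads in 1 control, library 2 of 9-month cerebellum, at 1.84 RPKM, and none in Eed-ko libraries. Hottip (Gm15053), a noncoding RNA known to help keep posterior HoxA genes active, held no read in 9-month Eed-ko libraries and reached 0.302 RPKM (29 reads) in a 3-month striatal Eed-ko library. Hoxa11as, the antisense partner of Hoxa11, held 3 reads in all. Strand was not stated in the sources used here, so reads of Hoxa11 and this partner cannot be told apart. Evx1, a homeobox gene at the posterior end, stayed at or under 0.0445 RPKM in TRAP libraries. Of 8 protein genes flanking the cluster, 7 were tested and 0 were called in either region; 2 had an unadjusted limma p under 0.05 in each region, and voom called 0. Among them, Skap2, an adaptor protein of blood cells, was -0.55 in striatum (limma adjusted p = 0.275) and -0.68 in cerebellum (limma adjusted p = 0.115).

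The genes of the same paralog groups in the other clusters give the frame for these levels. In HoxC, 5 of 8 genes of groups 5 to 13 reached 1 RPKM in a 9-month Eed-ko library, in HoxD 3 of 6, in HoxA 2 of 7 and in HoxB 0 of 6. The highest levels there were 3.30 RPKM for HoxA (Hoxa10), 6.12 RPKM for HoxC (Hoxc8), 8.41 RPKM for HoxD (Hoxd8) and 0.478 RPKM for HoxB (Hoxb7). All 4 Eed-ko libraries of 9 months lay above the other 20 for 2 genes of HoxA, 4 of HoxC, 2 of HoxD and 0 of HoxB. Within a paralog group the clusters differed. In group 10, Hoxa10 averaged 1.95 RPKM over those 4 libraries and Hoxc10 2.15, while Hoxd10 averaged 0.408. In group 9, Hoxc9 averaged 1.01 RPKM and Hoxa9 0.0270. In group 13, Hoxd13 averaged 2.09 RPKM and Hoxa13 0.194. No test of these differences between clusters was made.

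**Figure D4:**
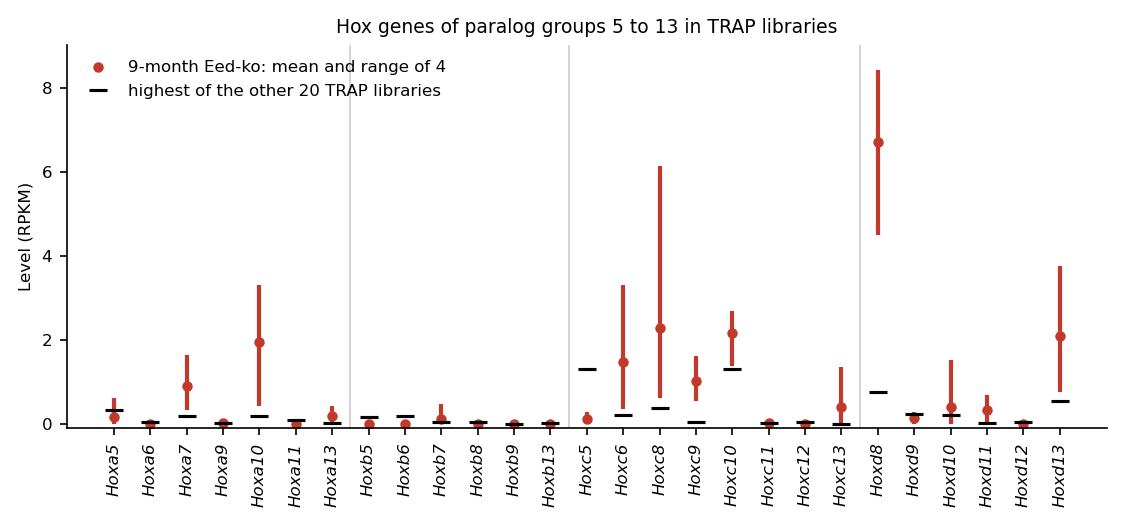
Level in RPKM of the Hox genes of paralog groups 5 to 13 by cluster; red dots and bars are the mean and range of the 4 Eed-ko TRAP libraries of 9 months, and black dashes are the highest of the other 20 TRAP libraries. For Hoxa7 and Hoxa10 the whole red bar lies above the dash, and the HoxB genes stay at or under 0.478 RPKM.

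The 4 HoxC and 2 HoxD genes that entered the test passed its filter, like Hoxa7 and Hoxa10, only through Eed-ko libraries, and all but Hoxc10 only through those of 9 months. They therefore had to differ in that direction, and their values are a description. In the same limma fit, Hoxd8 was called higher in both regions, by 1.27 in striatum (SE 0.16, adjusted p = 0.00213) and by 1.01 in cerebellum (SE 0.16, adjusted p = 0.0202). Voom called it in neither (adjusted p = 0.0818 and 0.0923), and scaling to microglial markers ended the striatal call (adjusted p = 0.0793). It was 1 of 2 HoxD genes tested; Hoxd13 was 0.70 in striatum (SE 0.15, adjusted p = 0.0889). Both were called for a change of the difference with age in striatum (limma adjusted p = 0.0124 for Hoxd8 and 0.0473 for Hoxd13). Voom called neither, and scaling to microglial markers ended both calls (adjusted p = 0.137 for Hoxd8 and 1 for Hoxd13). In cerebellum Hoxd8 was also called for a change with age (limma adjusted p = 0.00776), with that scaling too (0.00321) and not by voom (0.553). Of 4 HoxC genes tested, 0 were called by limma in either region; 4 had an unadjusted p under 0.05 in striatum and 1 in cerebellum, and voom called 1 in striatum, Hoxc6 (adjusted p = 0.0433). Their largest differences were 0.74 for Hoxc8 in striatum (SE 0.22, adjusted p = 0.198) and 0.76 for Hoxc10 in cerebellum (SE 0.19, adjusted p = 0.0825). Hoxa10, at 0.64 in striatum, lies within this range.

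The genes whose profile was most like that of Hoxa7 and Hoxa10 were again Hox genes. Over the 24 TRAP libraries, Pearson's r with the mean of the 2 was 0.985 for Hoxc9, 0.978 for Hoxc6, 0.952 for Hoxc8, 0.937 for Hoxd13 and 0.929 for Hoxd8. These r describe 24 libraries of which 4 carry most of the signal. For Hoxa10 alone, the closest included Hoxc6 at 0.964, Cdkn2a and Hoxc4 at 0.951 each, and Hoxd13 at 0.948. Cdkn2a encodes inhibitors of cell division that Polycomb represses. Cdkn2a stood at 2.81 ± 0.217 RPKM in 9-month Eed-ko striatum and 0.186 ± 0.226 RPKM in its controls (SD, n = 2), and at 0.439 ± 0.350 and 0.0197 ± 0.0279 RPKM in cerebellum. For Hoxa7 alone, Hoxc9 led at 0.955, and Hoxa10 was the fifth at 0.855. With Spearman's rank correlation, the genes closest to the mean were Tbx20, Hoxc4, Tex9, Rorb and Hoxd8, at 0.785 to 0.702, so only Hoxd8 appears among the first 5 by both measures.

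Hox proteins bind DNA with partners of the PBC and MEIS families. RNA of both families was present, but not of every gene in every library. Pbx4 had a control median of 0.361 RPKM and a lowest control value of 0. Of 9 such cofactor genes, 8 were tested and 0 were called by limma in either region; 3 had an unadjusted p under 0.05 in striatum and 2 in cerebellum, and voom called 0. Their summed level was 130 to 143 RPKM in 9-month Eed-ko striatum and 94.9 to 118 RPKM in its controls, and 79.3 to 82.5 against 72.7 to 73.6 RPKM in cerebellum. Pbx3 was 0.51 higher in Eed-ko striatum (SE 0.15, limma adjusted p = 0.193), and Meis3 was -0.50 in striatum (SE 0.16, limma adjusted p = 0.231) and -0.46 in cerebellum (SE 0.16, limma adjusted p = 0.183). Of the 14 listed activators of Hox transcription, 9 were tested, among them the histone methyltransferase gene Dot1l and the menin gene Men1, and 0 were called; 2 had an unadjusted limma p under 0.05 in striatum and 1 in cerebellum, and voom called 0.

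Genes for the Polycomb machinery showed no call either. All 13 genes of the list of PRC2 subunits and H3K27 demethylases were tested, and 0 were called by limma in either region; 3 had an unadjusted p under 0.05 in striatum and 2 in cerebellum, and voom called 0. Ezh1 stood at 11.8 ± 0.862 RPKM in control and 10.4 ± 1.72 in Eed-ko striatum, and Ezh2 at 2.65 ± 0.838 and 3.27 ± 1.52 (SD, n = 6 each). In cerebellum Ezh2 stood at 6.39 ± 0.977 and 5.86 ± 2.03 RPKM. Suz12 differed by 0.24 in striatum (SE 0.11, limma adjusted p = 0.378) and by -0.10 in cerebellum (SE 0.11, limma adjusted p = 0.711). Of 16 PRC1 genes, 0 were called, with 6 and 2 at an unadjusted limma p under 0.05 in striatum and cerebellum and none by voom.

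Hoxa9 and Hoxa10 are known from blood stem cells, where Hoxa9 acts with Meis1. Of 11 genes of that programme, 9 were tested, and 1 was called, Lmo2, a partner of blood transcription factors, which fell by 0.80 in Eed-ko cerebellum (SE 0.16, limma adjusted p = 0.0419). That call ended with voom (adjusted p = 0.0923), with no filter (0.0774) and with scaling to microglial markers (0.206). In striatum 0 were called by limma, with 3 at an unadjusted p under 0.05 and none by voom. Meis1 itself was 0.18 in striatum (SE 0.18, limma adjusted p = 0.745) and 0.0094 in cerebellum (SE 0.18, limma adjusted p = 0.991).

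Marker lists of other cell types moved with the 9-month Eed-ko libraries in striatum, in part. The summed level of 10 blood progenitor markers was 47.2 to 61.7 RPKM there and 21.9 to 23.4 in 9-month striatal controls, against 41.4 to 45.3 and 42.8 to 44.6 RPKM in cerebellum. Cd34 had the highest level of them, and Gata2 alone of the 5 tested was called, higher by 1.28 in striatum (SE 0.24, limma adjusted p = 0.0498). That call ended with voom (adjusted p = 0.105), with no filter (0.0530) and with both scalings (0.0529 and 0.249). The granule genes Mpo and Elane and the erythroid factor Gata1 were at 0 in all 4 Eed-ko libraries of 9 months. Of 11 markers of monocytes, neutrophils and lymphocytes in the table, the summed level was 4.06 to 12.8 RPKM in 9-month Eed-ko striatum against 2.45 to 3.98 in controls, and 2.02 to 3.65 against 3.11 to 9.09 RPKM in cerebellum. Most of these sums came from Cd79b, at 1.68 to 12.2 RPKM in the 4 Eed-ko libraries of 9 months and 0.964 to 6.91 RPKM in the 12 controls of all ages. Ccr2 was at most 0.348 RPKM in those Eed-ko libraries. Ly6c2, S100a8, S100a9, Ngp, Camp and Nkg7 among them were at 0 in the same 4 libraries.

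Summed levels in 9-month Eed-ko striatum also lay above its controls for 8 endothelial markers (6.60 to 7.86 against 2.61 to 2.74 RPKM), for 9 mural cell and fibroblast markers (12.2 to 19.0 against 3.60 to 3.77), for 5 choroid plexus markers (9.75 to 342 against 5.83 to 6.05), for 8 astrocyte markers (115 to 144 against 92.9 to 98.2) and for 9 oligodendrocyte markers (203 to 313 against 176 to 181). The 8 younger striatal libraries, of both genotypes, ran from 3.00 to 32.3, 5.29 to 66.4, 4.96 to 262, 115 to 184 and 174 to 324 RPKM for these lists. Ttr had the highest level of the choroid plexus markers, up to 645 RPKM in 9-month Eed-ko libraries of either region and 962 RPKM in controls of all ages. Neuronal and border macrophage lists overlapped between genotypes at 9 months in striatum. In cerebellum, of these 7 lists, the neuronal and oligodendrocyte sums lay above the controls at 9 months and the other 5 overlapped. Of 8 astrocyte markers tested there, 1 was called, the gap junction gene Gja1, higher by 1.04 (SE 0.21, limma adjusted p = 0.0419); voom (0.0406) and both scalings (0.0410 and 0.0200) also called it, and the fit with no filter did not (0.0724). The 15 microglial markers summed to 3423 to 4076 RPKM in 9-month Eed-ko striatum against 5663 to 5731 in controls, and to 1532 to 2892 against 1872 to 2813 RPKM in cerebellum. Over all ages, their median difference was -0.42 in striatum and -0.51 in cerebellum; 0 were called by limma or voom, with 4 and 10 at an unadjusted limma p under 0.05. The part of these lists in the HoxA values was not tested.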

How the data were processed

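Of 97 samples, the 28 with RNA values in the deposited table were used; the other 69 (single nuclei and chromatin immunoprecipitation) were not analysed here. Its values are RPKM, computed and deposited by the authors; the submitters' processing notes name bcl2fastq, TopHat2 2.1.0, HTSeq 0.6.0, DESeq2 and mm9, without their roles, and strand and gene lengths are not given in the sources used here. Amplified cDNA was sequenced as single reads, per the labels' protocols, so reads are not independent molecules and read floors cover counting error only. Of 37991 rows, 181 had no values. Reads were recovered from RPKM steps in all 32861 genes above 0 (tolerance 0.0001), and each gene's length from the same steps. The smallest whole numbers that fit were taken, so a gene above 0 in only 1 library gets 1 read whatever its level. Recovered reads served for depth, floors of 3 reads and voom. Columns were matched to samples by library name.

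Linear models were fitted with limma 3.58.1 (R 4.3.3; intensity trend, 12 residual degrees of freedom) on log2(RPKM + 1), with 1 mean per region, age and genotype, two-sided, with Benjamini-Hochberg adjustment over 16090 genes. The fit was checked on simulated data. Alternatives were another pseudocount, no filter, 2 scalings, voom, regions fitted alone, replicate blocks and each library left out. Named genes are all members, up to 4 per list with the smallest adjusted p, and the 5 nearest profiles; predicted genes were left out of the latter, and some genes are not reported here. The members and lists were chosen with earlier results of these data known.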

Additional observations from a re-analysis of the deposited data

Results flagged for a closer look

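Within the 6 libraries of a region and genotype, taken over the 3 ages, 16 of 20 sets with any read held a library set apart from the others by more than 0.625 of the set's range. Chance flags about 1 in 20, and sets that are mostly 0 are flagged by a single read.

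In controls, the values were Hoxa10 at 0.184 RPKM (18 reads) and Hoxa7 at 0.0136 RPKM (1 read) in library 1 of 3-month striatum, Hoxa9 at 0.0144 RPKM (5 reads) in library 1 and Hoxa11 at 0.0808 RPKM (12 reads) in library 2 of 6-month striatum, and Hoxa7 at 0.195 RPKM (54 reads) and Hoxa5 at 0.00553 RPKM (1 read) in library 1 of 6-month cerebellum. The 54 Hoxa7 reads in that control outnumber those of 2 of the 4 Eed-ko libraries of 9 months. The control held 96.4 M reads, against 37.4 and 22.3 M in those 2 libraries. In RPKM the 2 libraries stood higher than the control, at 0.316 and 0.405.

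In Eed-ko libraries of 9 months, library 2 stood apart for Hoxa7 in striatum (1.64 RPKM, next 0.316) and cerebellum (1.20 RPKM, next 0.405), for Hoxa10 in cerebellum (1.33 RPKM, next 0.432) and for Hoxa13 in striatum (0.416 RPKM, next 0.0542) and cerebellum (0.304 RPKM, others 0). Library 1 stood apart for Hoxa9, at 0.0460 RPKM in striatum (6 reads) and 0.0513 RPKM in cerebellum (4 reads). In younger Eed-ko libraries, library 1 of 3-month cerebellum held Hoxa5 at 0.0511 RPKM (3 reads) and Hoxa6 at 0.0318 RPKM (2 reads), and library 2 of 6-month striatum held Hoxa6 at 0.0326 RPKM (5 reads).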

How the results depend on the processing

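No alternative moved Hoxa7 past the threshold in any comparison; adjusted p of the averages over ages ran from 0.214 to 0.998 in striatum and from 0.249 to 0.926 in cerebellum, and was at least 0.494 in the other comparisons. Hoxa10 passed in 1 of 23 alternatives for the striatal average (adjusted p 0.00609 to 0.998) and in 4 of 20 for the change with age in striatum (0.000315 to 1), and in none elsewhere. Its direction turned without the 9-month libraries (-0.039 in striatum; Hoxa7 -0.048 in cerebellum). Cerebellum minus striatum turned to 0.32 for Hoxa10 with voom, and for Hoxa7 to 0.072 with scaling to microglial markers and to 0.023 and 0.083 without Eed-ko library 1 of 9-month cerebellum and library 2 of 9-month striatum, in a leave-one-out range of -0.252 to 0.083; the causes were not tested. Scaling to microglial markers moved the median of all genes to 0.25 in striatum (from 0.015), 0.38 in cerebellum (from -0.011) and 0.096 for their difference (from -0.032), and that of the changes with age to 0.36 and -0.43 (from 0.024 and 0.079).

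Genes called over the whole table moved more, and the causes were not tested. In the order striatum, cerebellum, cerebellum minus striatum, age in striatum and age in cerebellum, calls were 17, 60, 0, 9 and 6. Without a filter they were 75, 108, 47, 99 and 118. Voom gave 5 in cerebellum and 0 for both age tests, and a pseudocount of 0.1 gave 4 and 3 for age. Scaling to microglial markers gave 1 in striatum, 2 for age in striatum and 17 for age in cerebellum, and median-ratio scaling 11 in striatum. Regions fitted alone gave 7 and 2. Without library number 38 there were 7 and 26 calls in striatum and cerebellum, without number 48 155 and 417, and without 9-month libraries 2 and 30. Leaving out 1 library at a time gave 3 to 124, 1 to 376, 0 to 1, 2 to 31 and 5 to 34; the highest counts in striatum, cerebellum and both age tests came without Eed-ko library 2 of 9 months.

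A replicate block by the number in the titles gave 5 calls for age in striatum, with Hoxa10 at an adjusted p of 0.0845. Deviations of control and Eed-ko libraries with the same title number correlated between -0.049 and 0.140. Those of striatum and cerebellum with the same library number correlated between 0.032 and 0.177. Such values cannot decide whether same-numbered libraries share an animal, and the main fit did not pair them. The block changed no call of Hoxa7 or Hoxa10. In the shallowest library, counting error alone limits detection of Hoxa13 to about 0.0561 RPKM.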
